A study of Mus musculus with 2 samples.

Results

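*Il1rn*, *Il6*, *Ptgs2*, *Ccl2*, *Ccl7*, *Cxcl1*, *Cxcl5*, *Cxcl12*, *Csf1* and *Saa3* encode secreted inflammatory mediators of stromal cells, or in the case of *Ptgs2* the enzyme that makes one. All 10 genes were measured, on the 20 probe sets that the platform annotation pairs with 1 of these genes alone, out of 18193 genes on 34945 such probe sets. The genes were picked by name with their differences between the genotypes already known, so their values are a description. RNA came from mouse embryonic fibroblasts (MEFs), cells grown out of the body of embryos at embryonic day 12.5, of C57BL/6 background. One culture was wild type (*BCL11B*+/+) and the other lacked the transcription factor BCL11B (*BCL11B*-/-). Both were used at passage 2 and were given adipocyte differentiation medium for 12 h. It held the phosphodiesterase inhibitor methylisobutylxanthine (MIX) at 0.5 mM, the glucocorticoid dexamethasone at 1 μM and insulin at 10 μg/ml. The PPARγ agonist pioglitazone at 10 μM and fetal bovine serum at 10% were present as well, and the study's methods also list ascorbic acid. There was 1 Affymetrix array for each genotype and no replicate, so no test between genotypes is possible, and neither the number nor the sex of the embryos behind a culture is stated in the sources used here.

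Values are log2 expression after robust multi-array average, and a difference is the *BCL11B*-/- value minus the *BCL11B*+/+ value. Where a gene had several probe sets, the brightest over both arrays stands for it. Genes with a mean of at least 5 log2 units were counted, which were 12331 genes, and a difference of at least 1.5-fold (0.585 log2 units) was the rule of size. All 10 mediators and 18 of their 20 probe sets passed this minimum. The differences given by separate probe sets of the same gene scattered with an SD of 0.145 log2 units (pooled, 5543 genes), which is a technical yardstick within these arrays and holds no variation between cultures. The targeted gene *Bcl11b* read 8.77, 7.51, 6.79 and 6.89 on its 4 probe sets in *BCL11B*+/+ MEFs and 7.40, 6.33, 5.54 and 5.32 in *BCL11B*-/- MEFs. It was thus 2.26- to 2.97-fold lower, and signal remained above the minimum of 5 on all 4 probe sets. Which part of the gene these probe sets cover was not analysed here. *Xist*, the RNA of the inactive X chromosome, was at 10.80 in the *BCL11B*+/+ culture against 4.80 in the other, and the Y-linked *Eif2s3y* was at 7.89 against 8.97, so the sex makeup of the cultures and their genotype cannot be told apart. The 3′ minus 5′ difference of the β-actin controls, a sign of RNA degradation, was 1.64 and 1.47. Fibroblast markers were present on both arrays, with *Col1a2* at 14.06 and 13.97.

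Interleukin-1 (IL-1) and tumor necrosis factor drive fibroblasts to make IL-6, chemokines, prostaglandins and serum amyloid A through the transcription factors NF-κB, AP-1 and C/EBP. IL-1 receptor antagonist, the product of *Il1rn*, occupies the IL-1 receptor without activating it. Glucocorticoids such as dexamethasone repress many of these genes, whereas cyclic AMP, which MIX raises, can induce *Il6* and *Ptgs2*. In adipose tissue these mediators come from stromal cells, adipocytes and macrophages, and IL-6, IL-1 and prostaglandins are known to act on preadipocytes.

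The 250 bases upstream of the start site show which of these factors' letters stand before genes that differed and before genes that did not. RefSeq windows of build GRCm38.p6 were matched by symbol for 7 of the 10 genes, as 9 windows. None was matched for *Ccl2*, *Ccl7* and *Cxcl5*, so the letters before these genes were not searched. Of the 3 windows of *Il1rn* 2 overlap, and the upstream one of these is printed with the distant one. Matches to the NF-κB consensus, to TTGCNNAA (C/EBP) and to TGANTCA (AP-1), on either strand, are in capitals. *Il1rn* has one start with the window chr2:24336610-24336859 and another with the window chr2:24345041-24345290, both on the plus strand. The windows of *Il6* (chr5:30012864-30013113) and *Cxcl1* (chr5:90890995-90891244) are on the plus strand, and that of *Saa3* (chr7:46715677-46715926) is on the minus strand.
*Il1rn*, distant start: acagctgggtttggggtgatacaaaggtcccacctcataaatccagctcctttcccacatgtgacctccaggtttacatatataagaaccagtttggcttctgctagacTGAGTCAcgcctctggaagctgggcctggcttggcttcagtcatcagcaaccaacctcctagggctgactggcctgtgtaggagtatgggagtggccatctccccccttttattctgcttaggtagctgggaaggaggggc
*Il1rn*, near start: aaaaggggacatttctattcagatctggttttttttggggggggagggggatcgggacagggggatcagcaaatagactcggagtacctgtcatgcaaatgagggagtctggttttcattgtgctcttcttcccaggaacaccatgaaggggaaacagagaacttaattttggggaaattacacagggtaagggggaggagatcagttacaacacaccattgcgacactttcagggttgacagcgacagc
*Il6*: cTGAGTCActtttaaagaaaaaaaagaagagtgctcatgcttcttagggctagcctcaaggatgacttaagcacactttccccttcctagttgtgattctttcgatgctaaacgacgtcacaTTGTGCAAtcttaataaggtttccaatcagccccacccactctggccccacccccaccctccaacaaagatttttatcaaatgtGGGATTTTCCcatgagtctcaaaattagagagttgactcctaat
*Saa3*: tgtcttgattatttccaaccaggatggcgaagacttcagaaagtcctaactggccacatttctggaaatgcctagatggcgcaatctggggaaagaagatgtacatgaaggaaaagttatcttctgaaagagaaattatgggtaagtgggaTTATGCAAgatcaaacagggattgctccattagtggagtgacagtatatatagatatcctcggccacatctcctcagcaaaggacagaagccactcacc
*Cxcl1*: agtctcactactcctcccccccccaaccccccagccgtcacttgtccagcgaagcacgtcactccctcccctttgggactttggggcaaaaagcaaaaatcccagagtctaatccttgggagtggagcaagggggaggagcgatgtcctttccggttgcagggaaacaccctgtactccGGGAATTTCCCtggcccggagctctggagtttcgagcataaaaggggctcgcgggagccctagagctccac

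An NF-κB match stood before *Il6*, *Cxcl1* and *Csf1*, while 7.251% of the 32851 windows of all genes held one. In *Cxcl1* the consensus matched on both strands, 1 base apart, so their capitals run together. A C/EBP match stood before *Il6*, *Saa3* and *Ptgs2*, against 9.564% of all windows. An AP-1 match stood before *Il6* and at the distant start of *Il1rn*, against 6.749%. The half-site of the cyclic AMP response element, CGTCA on either strand, was searched as well. It was found before *Il6* once, before *Cxcl1* at 2 places and before *Cxcl12* once, against 17.77% of all windows, and TATAAA on the gene's strand was found in none of the 9 windows, against 7.592%. Among the 7 genes searched, *Il6* was thus the 1 gene with a match of all 4 kinds of factor. Both genes with an AP-1 match, *Il6* and *Il1rn*, read higher in *BCL11B*-/- MEFs, but the windows at the near starts of *Il1rn* held none. Which start was in use was not measured. The genes were picked with their differences known, so nothing is read from this. Of the genes with a C/EBP match *Il6* read higher and *Saa3* lower, and *Ptgs2* was under 1.5-fold. Of those with an NF-κB match *Il6* read higher, and *Cxcl1* and *Csf1* were under 1.5-fold. A match is a description of the letters and not a site in use.

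Of the 10 mediators 2 were at least 1.5-fold higher in *BCL11B*-/- MEFs, *Il1rn* and *Il6*. Another 2 were at least 1.5-fold lower, *Ccl7* and *Saa3*, and 6 were neither. Among all 12331 genes 1.61% were at least 1.5-fold higher and 1.75% at least 1.5-fold lower. The mediators were picked with these differences known, so nothing is read from their share. The median difference of the 10 was 0.30, against 0 for all genes, with 6 above 0 and 4 below. Ordered by difference the genes ran from *Il1rn* over *Il6*, *Ptgs2*, *Cxcl12*, *Cxcl5*, *Csf1*, *Cxcl1*, *Ccl2* and *Saa3* to *Ccl7*. *Ptgs2*, *Cxcl12*, *Cxcl5* and *Csf1* followed each other at gaps of at most 0.12, and *Saa3* and *Ccl7* lay 0.066 apart, so these neighbours are not told apart by the probe set SD of 0.145.

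**Figure D1:**
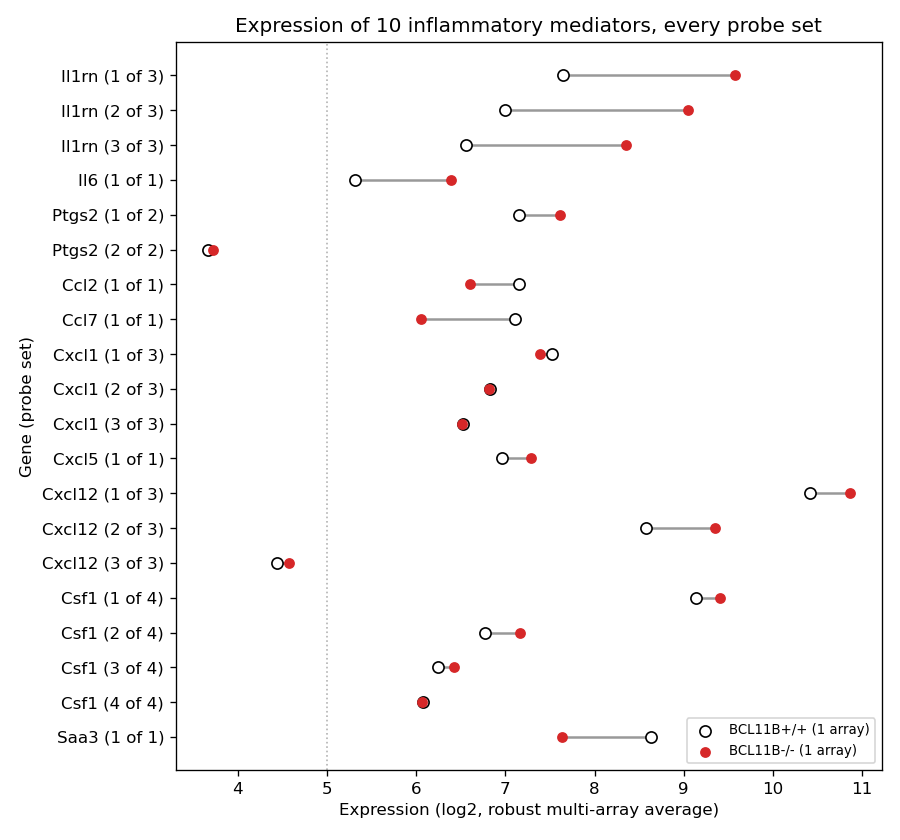
Each of the 20 probe sets of the 10 mediators (vertical axis) with its log2 expression level (horizontal axis) as open circles for BCL11B+/+ and red circles for BCL11B-/- MEFs; each circle is 1 array, so there are no error bars, and the dotted line is the minimum of 5. The red circle lies far to the right on all 3 probe sets of *Il1rn*, and to the left for *Ccl7* (7.11 and 6.05) and *Saa3* (8.63 and 7.64).

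*Il1rn* read 7.64 in *BCL11B*+/+ and 9.57 in *BCL11B*-/- MEFs, which is 3.81-fold higher. Another probe set read 6.997 and 9.05, a difference of 2.05. The remaining one read 6.56 and 8.35, a difference of 1.79. The 3 probe sets thus lay between 1.79 and 2.05, a gap of 0.26, and each was past 3-fold, with 3.45-fold on the lowest. No other of the 12331 genes had a larger increase. The genes whose difference was closest to that of *Il1rn* were *Ada*, adenosine deaminase, with 1.90, and *Kng1*, the kininogen from which bradykinin is cut, with 1.77. They were followed by *Itih2*, a hyaluronan-binding inhibitor chain, with 1.63, the cartilage matrix gene *Comp* with 1.63 and *Ccn5*, a secreted matricellular protein gene, with 1.61. Over 2 arrays this likeness is closeness of a single difference. The nearest protein-coding neighbours of *Il1rn* on chromosome 2 did not share its difference, but their signal was low on both arrays. *Il1f10*, a ligand gene of the same family on one side, read 5.05 and 5.12, a difference of 0.067. *Psd4*, on the other side, read 5.48 on both, a difference of 0. Farther out, *Cacna1b* read 5.20 and 5.73, a difference of 0.53, and *Il1f5*, *Il1f6* and *Pax8* were under the minimum of 5.

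The agonists that IL-1 receptor antagonist opposes were dim in both cultures. *Il1b* read 4.21 in *BCL11B*+/+ and 4.15 in *BCL11B*-/- MEFs, and *Il1a* read 3.29 and 3.10, all under the minimum of 5. Of 10 IL-1 family ligands 4 were measured, 1 was higher (*Il1rn*), none was lower and 3 were neither. The other 3 were *Il18* with 0.023, *Il1f10* with 0.067 and the alarmin gene *Il33* with −0.58, just inside the 1.5-fold rule. On the receptor side, 12 of 18 listed genes of receptors, adaptors and processing were measured, none was higher, 1 was lower and 11 were neither, with a median of −0.17. The lower gene was *Il1r2*, the decoy receptor that binds IL-1 without signaling, at 6.94 in *BCL11B*+/+ and 5.06 in *BCL11B*-/- MEFs, which is 3.67-fold lower on its single probe set. The antagonist and the decoy receptor, which both hold back IL-1, thus differed in opposite directions. *Il1rap*, the accessory chain of the receptor, differed by −0.57, or by −0.27 as the mean over its 5 probe sets. *Il1r1*, the signaling receptor, read 10.51 and 10.03, a difference of −0.48, while its other probe set differed by 0.057. The highest were the kinase gene *Irak2* with 0.44 and *Irak3*, which encodes an inhibitory member of the same kinase family, with 0.36.

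The single probe set of *Il6* read 5.31 in *BCL11B*+/+ and 6.40 in *BCL11B*-/- MEFs, which is 2.12-fold higher. The *BCL11B*+/+ value lay next to the median of that array, 5.28. IL-6 binds IL-6 receptor α and the shared chain gp130, encoded by *Il6ra* and *Il6st*, which activate STAT3, and SOCS3 is induced as a feedback inhibitor. *Il6ra* read 7.17 in *BCL11B*+/+ and 6.03 in *BCL11B*-/- MEFs, which is 2.21-fold lower, while its other probe set differed by −0.20. *Il6st* and *Stat3* differed by 0.18 and 0.0017. *Socs3* read 9.05 and 9.70, which is 1.58-fold higher, but 0.57 as the mean over its 3 probe sets, just under the rule. Of 11 measured genes of 13 in this list 1 was higher, 1 was lower and 9 were neither, with a median of −0.037. *Cntfr*, the next lowest, differed by −0.23. Among the ligands of the family 3 of 8 were measured, *Il6* was higher and *Clcf1* with 0.24 and *Ctf1* with 0.097 were neither.

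**Figure D2:**
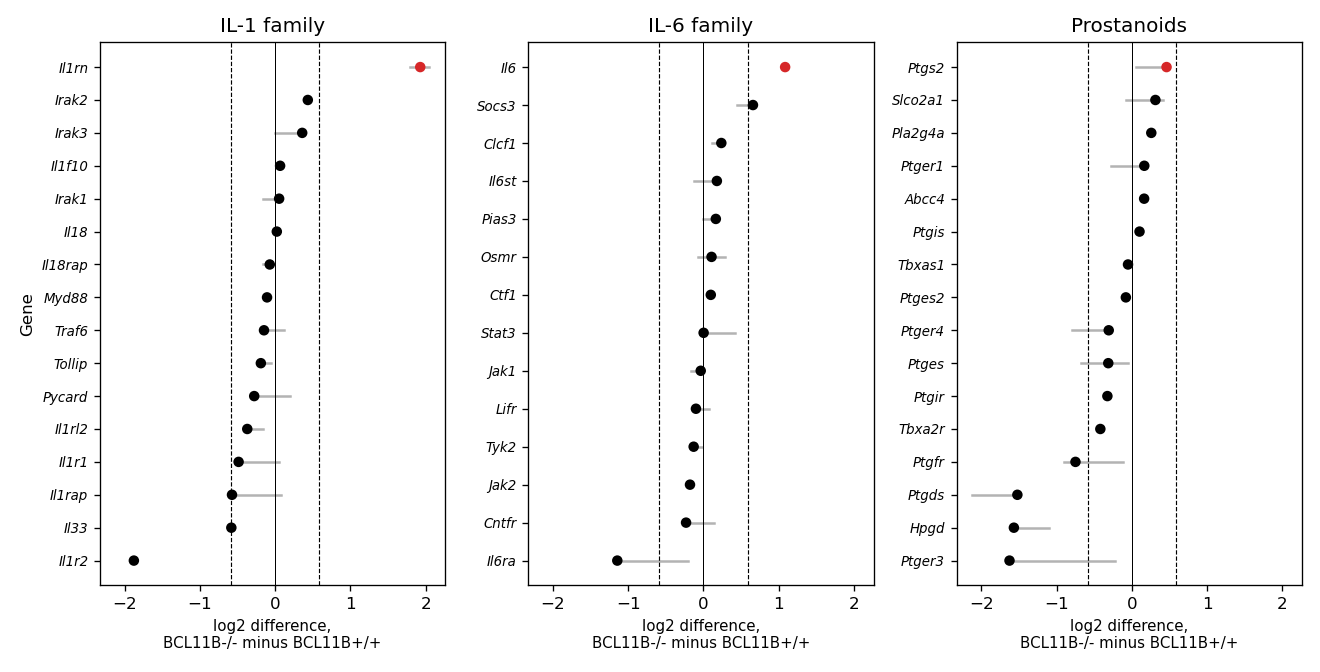
Log2 difference, BCL11B-/- minus BCL11B+/+ (horizontal axis), of measured genes (vertical axes), with 1 array per genotype. The panels hold the IL-1 family, the IL-6 family, and prostanoid synthesis, breakdown and receptors. Points are the representing probe set, red for the mediators. Grey lines span all probe sets of a gene and dashed lines mark 1.5-fold. *Il1rn* (1.93) and *Il1r2* (−1.88) lie at opposite ends of the first panel, *Il6* (1.08) and *Il6ra* (−1.15) at opposite ends of the second, and *Ptgds*, *Hpgd* and *Ptger3* lie far to the left in the third.

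*Ptgs2*, the inducible cyclooxygenase that starts prostaglandin synthesis from arachidonic acid, read 7.15 in *BCL11B*+/+ and 7.61 in *BCL11B*-/- MEFs. This difference of 0.46, or 1.38-fold, was under the rule. Its other probe set was dim, at 3.67 and 3.72, and differed by 0.052. *Pla2g4a*, the neighbouring gene on chromosome 1 whose enzyme releases arachidonic acid, differed by 0.26. Some other genes of prostanoid synthesis, breakdown and receptors differed more than *Ptgs2* itself, and downward. Of 16 measured genes of 21 listed none was higher, 4 were lower and 12 were neither, with a median of −0.19. Among all genes 1.75% were at least 1.5-fold lower, and the list was chosen with earlier results known. *Ptgds*, a prostaglandin D synthase, read 9.31 in *BCL11B*+/+ and 7.78 in *BCL11B*-/- MEFs, which is 2.87-fold lower, with −2.12 on its other probe set. *Hpgd*, the dehydrogenase that inactivates prostaglandins, read 8.05 and 6.48, which is 2.97-fold lower, with −1.10 on its other probe set. *Ptger3*, a prostaglandin E receptor, read 7.85 and 6.22, which is 3.09-fold lower, although its other probe set differed by −0.22. *Ptgfr*, the prostaglandin F receptor, differed by −0.75, or by −0.58 as the mean over 5 probe sets, which falls short of the rule. The transporter gene *Slco2a1*, with 0.31, was the highest after *Ptgs2*.

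Both CC chemokine mediators read lower in *BCL11B*-/- MEFs. *Ccl7*, whose product attracts monocytes, read 7.11 in *BCL11B*+/+ and 6.05 in *BCL11B*-/- MEFs, which is 2.08-fold lower. *Ccl2*, the main monocyte chemoattractant of fibroblasts, read 7.15 and 6.60, a difference of −0.55 or 1.46-fold, short of the rule. Each has 1 probe set. *Ccl2* and *Ccl7* are next to each other on chromosome 11, followed by *Ccl11*, *Ccl12* and *Ccl8*. The eosinophil chemokine gene *Ccl11* read 5.95 and 5.93, *Ccl8* read 6.42 and 6.38, and *Ccl12* was dim at 2.90 and 2.83. The lower reading was thus seen at *Ccl2* and *Ccl7* and not at *Ccl11* and *Ccl8*, while *Ccl12* was too dim to show one. Of 12 measured CC chemokines of 21 listed none was higher, 1 was lower (*Ccl7*) and 11 were neither, with a median of −0.075. *Ccl5* with 0.42 and *Ccl4* with 0.20 were the highest.

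The CXC chemokine mediators were all under 1.5-fold on their representing probe sets. *Cxcl12*, which retains CXCR4-bearing progenitor cells in stroma, read 10.42 in *BCL11B*+/+ and 10.86 in *BCL11B*-/- MEFs, a difference of 0.45. Another probe set read 8.58 and 9.35, which is 1.71-fold higher and past the rule, and the remaining one was dim at 4.44 and 4.57. All 3 lay above 0. *Cxcl5*, a neutrophil chemoattractant gene, read 6.97 and 7.29, a difference of 0.32 on its single probe set. *Cxcl1*, also a neutrophil chemoattractant gene, read 7.52 and 7.39, a difference of −0.13, and its other probe sets differed by −0.021 and −0.012. These differences of *Cxcl1* are smaller than the SD between probe sets. The neutrophil chemokine genes next to *Cxcl1* on chromosome 5 were dim, with *Cxcl2* at 4.25 and 4.08 and *Cxcl3* at 2.83 and 3.34. Of 9 measured genes of 17 CXC, CX3C and XC chemokines all 9 were neither, with a median of 0.063, and *Pf4* with −0.25 was the lowest. Among 23 chemokine receptors 5 were measured, 1 was higher, 1 was lower and 3 were neither, against 3.36% of all genes past the rule. The higher one was *Ackr3*, a scavenger receptor of CXCL12, at 9.25 in *BCL11B*+/+ and 9.86 in *BCL11B*-/- MEFs, which is 1.52-fold. The signaling receptor gene *Cxcr4* was dim at 3.24 and 3.18. The lower one was *Ackr1*, an atypical receptor that binds CCL2, CCL7 and CXCL1 among others, at 6.73 and 5.89, which is 1.79-fold. *Ccr2* with 0.28 and *Ackr4* with 0 were neither.

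*Csf1* encodes the growth factor on which macrophages depend. It read 9.14 in *BCL11B*+/+ and 9.41 in *BCL11B*-/- MEFs, a difference of 0.27 that is under the rule, and its other 3 probe sets differed by 0.39, 0.17 and −0.017. *Csf1r*, the gene of its receptor, which marks macrophages, read 8.85 and 7.99, which is 1.82-fold lower, or −0.53 as the mean over its 3 probe sets. Ligand and receptor therefore lay on opposite sides of 0. Of 7 measured genes of 12 in this list none was higher, 1 was lower and 6 were neither, with a median of −0.21. *Csf2ra* differed by 0.16, and *Kitl*, the stem cell factor gene, by −0.58, or by −0.73 as the mean over its 4 probe sets.

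*Saa3*, the serum amyloid A gene that mouse stromal cells, adipocytes and macrophages express outside the liver, read 8.63 in *BCL11B*+/+ and 7.64 in *BCL11B*-/- MEFs. It was 1.98-fold lower on its single probe set, which carries an _a suffix, meaning that its probes can match several transcripts of the gene. The other serum amyloid A genes beside it on chromosome 7 were under the minimum, with *Saa1* at 3.61 and 3.80, *Saa2* at 3.20 on both arrays and *Saa4* at 5.03 and 4.80. Of 12 acute-phase genes 4 were measured, 2 were higher, 1 was lower (*Saa3*) and 1 was neither. Of all genes 3.36% were past the rule. The haptoglobin gene *Hp* read 6.04 and 6.90, which is 1.82-fold higher. The ceruloplasmin gene *Cp* differed by 0.60, with its 8 probe sets spread from −0.14 to 1.31 and a mean of 0.51. *Lcn2*, the lipocalin 2 gene, which IL-1 and NF-κB induce together with *Saa3* in many cells, read 7.79 and 7.83. The acute-phase genes thus did not move one way, with *Saa3* down, *Hp* up and *Lcn2* at 0.035.

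**Figure D3:**
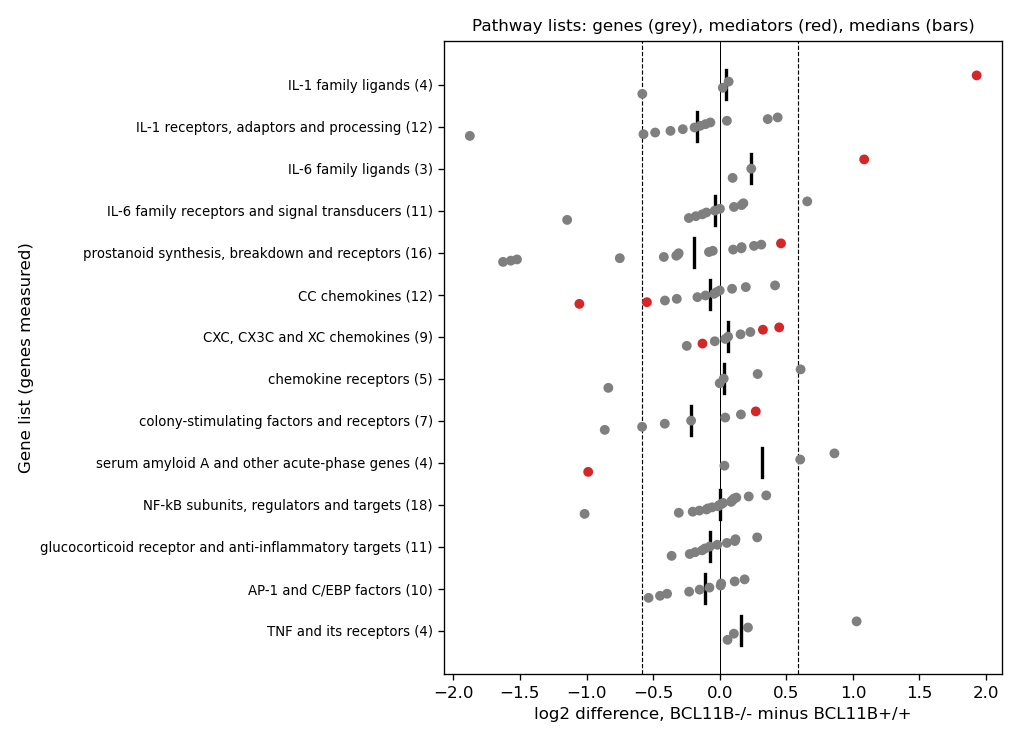
Log2 difference, BCL11B-/- minus BCL11B+/+ (horizontal axis), of the measured genes of 14 pathway lists (vertical axis, number of genes in brackets), with 1 array per genotype; grey points are genes, red points the mediators, black bars list medians and dashed lines 1.5-fold. The NF-κB, glucocorticoid and AP-1 and C/EBP lists lie near 0 with medians of 0.0044, −0.075 and −0.11, while the mediators spread from −1.05 to 1.93.

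The mRNA of regulators common to the mediators differed little by list median, and the activity of their proteins was not measured. Of 18 measured genes of 22 NF-κB subunits, regulators and targets none was higher, 1 was lower and 17 were neither, with a median of 0.0044. *Nfkbia*, which encodes the inhibitor IκBα and is itself an NF-κB target, read 11.25 and 11.16, and *Tnfaip3*, another NF-κB inhibitor gene, differed by −0.057. The lower gene was *Icam1*, an adhesion molecule, at 8.36 in *BCL11B*+/+ and 7.35 in *BCL11B*-/- MEFs, which is 2.02-fold on its single probe set. *Birc2* with −0.31 was the next lowest, and *Nfkbiz*, whose product is needed for *Il6* induction in macrophages, with 0.35 and *Cyld* with 0.22 were the highest. None of the 11 measured genes of the glucocorticoid receptor and its anti-inflammatory targets was 1.5-fold higher or lower, from *Klf9* with −0.36 and *Zbtb16* with −0.23 to *Anxa1* with 0.12 and *Errfi1* with 0.28. The receptor gene *Nr3c1* differed by −0.075 and *Tsc22d3*, a target induced by dexamethasone, by −0.18. None of 10 measured AP-1 and C/EBP genes was past the rule either, from *Cebpa* with −0.53 and *Fos* with −0.45 to *Fosl1* with 0.11 and *Junb* with 0.19. *Cebpb* read 11.64 and 11.49. Of 4 measured genes of TNF and its receptors 1 was higher, *Tnfsf11*, the gene of the osteoclast factor RANKL, at 7.59 and 8.61, which is 2.04-fold, and *Tnfrsf1b* with 0.21, *Tnfrsf1a* with 0.11 and *Tnfrsf12a* with 0.059 were neither. *Tnf* was dim at 4.60 and 4.80. Over all 14 lists without the 10 mediators 116 genes were measured, of which 5 were higher and 9 were lower, 12.1%, with a median of −0.021. Among all 12331 genes 3.36% were at least 1.5-fold higher or lower. The lists were chosen with earlier results of these arrays known.

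Macrophage genes, *Csf1r* among them, read lower in *BCL11B*-/- MEFs, as did the mediators *Ccl7*, *Ccl2* and *Saa3*. Of 19 macrophage markers 16 were measured, with a median over the 16 of −0.83. While 1.75% of all genes were at least 1.5-fold lower, 13 of these 16 were past the rule, all downward. The 13 were *Mrc1*, *Laptm5*, *Tyrobp*, *Lyz2*, *C1qc*, *C1qa*, *Csf1r*, *C1qb*, *Ptprc*, *Mpeg1*, *Cd68*, *Adgre1* and *Fcgr3*, between −1.07 and −0.61. As means over their probe sets *Laptm5* with −0.36, *Ptprc* with −0.35 and *Csf1r* with −0.53 were under the rule. The markers *Itgam*, *Aif1* and *Fcgr1* were dim on both arrays. *Lyz2*, which encodes lysozyme, read 11.03 in *BCL11B*+/+ and 10.11 in *BCL11B*-/- MEFs, and *Mrc1*, a mannose receptor gene, was the lowest with −1.07. The summed signal of the 19 markers was 12.43 and 11.65 on the log2 scale. Their part in the lower mediators was not tested, and in such bulk RNA fewer macrophages and less RNA per macrophage cannot be told apart. The 3 measured markers short of the rule were *Fcer1g* with −0.50, *Cd53* with −0.18 and *Cd14*, a marker that fibroblasts also express, with −0.056. *Il1rn* and *Il6*, which macrophages can express as well, read in the opposite direction to these markers. Few markers of some other cell types passed the minimum of 5. Measured were 3 of 9 neutrophil, 1 of 5 mast cell, 1 of 6 lymphocyte, 2 of 6 endothelial and 3 of 6 epithelial markers. None of those measured was at 1.5-fold in either direction, and the dim ones could not show a difference. The representatives with the highest signal were *Camp* with 5.28 and 5.47, *Tpsb2* with 5.13 on both arrays, *Cd3e* with 5.35 and 5.39, *Kdr* with 6.82 and 6.97 and *Krt14* with 7.10 and 6.91. Mesothelial markers were present, with *Upk3b* at 10.27 and 9.83 and 1 of 6 genes, *Lrrn4*, at least 1.5-fold lower with −0.62. Among fibroblast markers *Thy1* was 1.57-fold lower, at 10.72 and 10.07, and the other 6 measured were neither. *Fabp4*, an adipocyte gene, read 9.85 and 10.16, but its 4 probe sets spread from −0.26 to 0.31 with a mean of 0.063. *Adipoq*, the other adipocyte marker measured, read 5.46 and 6.02, under the rule.

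**Figure D4:**
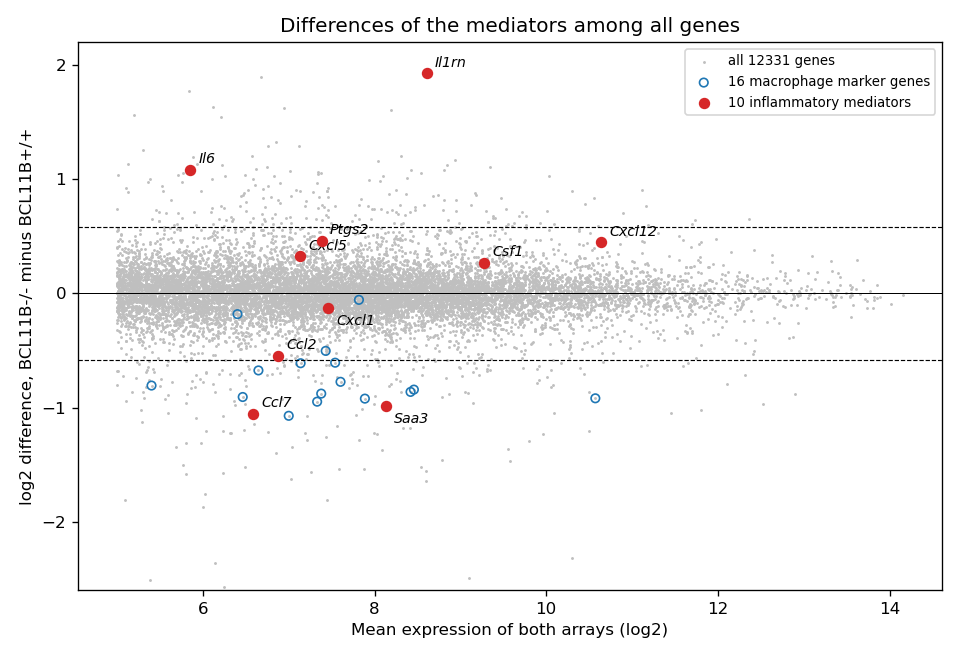
Log2 difference, BCL11B-/- minus BCL11B+/+ (vertical axis), against the mean of both arrays (horizontal axis, log2) for 12331 genes (grey), 16 macrophage markers (blue rings) and the 10 mediators (red), with 1 array per genotype; dashed lines mark 1.5-fold, and 1 gene lies below the axis. *Il1rn* is the highest point at 1.93, and *Ccl7* and *Saa3* lie at the level of the lower macrophage markers.

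The study ranked genes by the weighted average difference, which multiplies the log2 difference by the relative expression level. By this score, each gene taken at whichever probe set scored farthest from 0, *Il1rn* ranked 1st among increased genes, *Cxcl12* 56th and *Il6* 140th. Among decreased genes *Saa3* ranked 62nd, *Ccl7* 118th and *Ccl2* 402nd. By the plain difference among the 12331 genes *Il6* ranked 25th and *Cxcl12* 401st among increased genes, while *Ccl7* ranked 56th and *Saa3* 63rd among decreased genes. *Cxcl12* took its higher rank from its abundance and from the probe set with 0.77, and on its brightest probe set it ranked 161st by the weighted score. *Il1rn* was first by each of these rankings.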

How the data were processed

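RNA of 1 *BCL11B*+/+ and 1 *BCL11B*-/- MEF culture was measured on Affymetrix whole-genome mouse arrays. Values were deposited as log2 expression, for which the authors reduced the scans by robust multi-array average, which corrects background, normalizes between arrays and summarises probes, and the submitters' processing notes name R 3.0.3. Normalization between arrays hides a change of total mRNA, and background in dim probe sets pulls differences toward 0. No genome build is given for the values. Of 45101 probe sets 64 were controls, 34945 of the others had 1 annotated gene, 932 several and 9160 none. Genes were named from probe sets with 1 gene, and 34741 of those had an Entrez identifier known to RefSeq GRCm38.p6, with all symbols left as annotated. For 3 listed genes the older symbol was used.

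Differences, counts at 1.5-fold with a mean of at least 5, medians and weighted average differences were computed with Python 3.11.15, numpy 2.4.6 and pandas 2.3.3, and plots with matplotlib 3.10.9. No p-value can be had from a single array of each genotype, which also limits the precision. The mediators and the 14 pathway and 9 marker lists were chosen with earlier results of these data known. Named were all mediators and *Bcl11b*, of each pathway list the 2 highest and 2 lowest measured genes and any past 1.5-fold, the 5 genes closest to *Il1rn* in difference, and of each marker list the gene with the highest signal and any past 1.5-fold. Dim genes, neighbours on the chromosome and other list genes were named after their values were seen. As alternatives, a loess fit (span 0.4) or the median was taken off the differences, and the choice of probe set, the minimum and the fold rule were varied.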

Additional observations from a re-analysis of the deposited data

How the results depend on the processing

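No paired analysis was possible because there is 1 array per genotype. Of 38 alternative values of the mediators' differences, 37 moved by less than the SD between probe sets and none changed sign past the rule. *Ptgs2* went to 0.26 when its probe sets, the dim one included, were averaged. Many of the 38 could not move. The median difference taken off was 0, 5 mediators have 1 probe set, and the suffix-free choice was often the same probe set. Among mediators, 1 was higher (*Il1rn*) and 1 lower (*Saa3*) with a mean of at least 7, since *Il6* and *Ccl7* are dimmer than that; 6 were higher at 1.2-fold; 1 was lower (*Ccl7*) at 2-fold; and 1 was lower on probe sets free of any suffix for shared or multiple transcripts, since *Saa3* has no other. On those probe sets *Ackr3*, *Ackr1* and *Socs3* were no longer counted as past 1.5-fold either, and 3 prostanoid genes were lower instead of 4. As means over their probe sets, *Socs3*, *Cp*, *Ptgfr*, *Csf1r*, *Ptprc* and *Laptm5* were under 1.5-fold. The counts over all genes, 198 higher and 216 lower, became 112 and 124 for genes with means from 7 up. They became 1086 and 962 under a 1.2-fold rule and 43 and 62 under a 2-fold rule. The loess fit ranged from −0.0091 to 0.012 and the median difference was 0. Of 83 alternative list medians 10 moved by more than the probe set SD. Of 224 alternative list counts 36 moved by more than 1.5-fold, or to or from 0. Of 20 alternative ranks of the mediators 5 moved by more than 1.5-fold. Low signal limits *Il6*, and 5 of the 10 mediators rest on 1 probe set each.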

Other observations

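Some genes of the lists had a mean under 5 log2 units and entered no count. *Tnfrsf11b*, the gene of the decoy receptor for RANKL, read 4.08 in *BCL11B*+/+ and 5.28 in *BCL11B*-/- MEFs, a difference of 1.19, with 0.41 on its other probe set, so that both it and *Tnfsf11* read higher in *BCL11B*-/- MEFs. *Il34*, the other ligand of the CSF1 receptor, read 4.45 and 4.98, and *Ppbp*, a platelet chemokine gene beside *Cxcl5*, read 4.07 and 4.78. *Ccl3*, a macrophage chemokine gene, read 4.22 and 3.71.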
